A study of Mus musculus with 8 samples.

Results

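The motile cilium axoneme genes were read from single-cell RNA of the mouse lung as the 69 of 33,027 genes whose symbols began with Dnah, Rsph, Cfap, Tekt or Drc and a digit, or with Spag6, Spag16 or Spag17. Dnai followed by a digit was also searched, and no gene in the files matched it. Dynein intermediate chains are listed there as Dnaic1 and Dnaic2, which stood at 2.79 and 2.15 transcripts per 10,000 in ciliated cells and were read with the other ciliary genes, not as members. The families were of unequal size, with 32 Cfap genes, 16 Dnah, 8 Rsph, 5 Tekt, 5 Spag and 3 Drc. They were measured in the cells that the authors labelled ciliated, which were 3519 of 41,106 cells, and in the other airway labels, with 1389 club, 509 goblet and 192 basal cells.

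The axoneme is the microtubule core of the motile cilium. Dynein arms on its outer microtubule doublets drive the bending, and radial spokes, a central pair of microtubules and the nexin-dynein regulatory complex set its form and timing, while filaments and small proteins inside the doublets, the tektins among them, stiffen the tubules. In the airways, ciliated cells carry these cilia and sweep mucus out of the lung. The program is switched on in these cells by the transcription factors FOXJ1 and RFX2 and RFX3, and losses of dynein heavy chains, spoke proteins and regulatory complex subunits cause primary ciliary dyskinesia.

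All 8 mice were Sftpc-CreERT2-mTmG animals on a C57BL/6 background that had received tamoxifen at 8 to 10 weeks of age, which marks alveolar type II cells and their descendants with eGFP and leaves other cells with tdTomato. Littermates then breathed either cigarette smoke (CS, 4 mice: C2, C5, D2 and D5) for 6 hours a day on 5 days a week over 10 months, or room air (RA, 4 mice: F1, F3, M1 and M3). Right lungs were digested, and the suspensions were rebuilt from 10% CD45-positive and 90% CD45-negative cells, so that cell shares describe the suspension and not the lung. Each of 4 sequencing lanes held 1 CS and 1 RA mouse. The Sftpc promoter drives the recombinase in type II cells, so that ciliated cells were not its target, and 1 exposure time was studied.

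A mouse gave between 2597 and 6561 cells and between 31,882,952 and 55,485,617 unique molecular identifiers (UMIs), each UMI marking 1 captured transcript. The sex-linked transcripts of the 4 CS libraries went against their sex labels, and those of the 4 RA libraries matched them. As this holds for the whole CS group, no comparison could be made without these libraries. The study used as many males as females in each group. In the CS group, C2 and C5 held Xist, a transcript of female cells, at 7.83 and 8.34 per 10,000. D2 and D5 held Ddx3y, a gene of the Y chromosome, at 0.925 and 1.08. No fit included sex. Over the series, 197 cell barcodes occurred in more than 1 library, and 29 of the ciliated cells carried such a barcode. In ciliated cells, the median UMI total was 14,558 to 20,340 in the CS mice, against 13,475 to 19,759 in the RA mice. The share of mitochondrial transcripts had medians from 2.25% to 2.92%. The values below are transcripts per 10,000, averaged over the cells of a type in 1 mouse, and n counts mice.

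The label of the ciliated cells was set beside 8 markers that are not members. As the authors named the cell types from the same transcripts, these markers describe the label and do not test it. All 8, among them Foxj1, Tppp3, Ccdc153 and Tmem212, were higher in the ciliated cells than in club, goblet and basal cells. Foxj1 stood at 6.74 per 10,000 in ciliated cells, 1.203 in club cells, 0.572 in goblet cells and 0.0468 in basal cells. Of the 3519 cells, 3489 were in deposited cluster 2, and 98.5% of these held Foxj1.

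The sequences before the start of transcription, which the choice by symbol did not use, are shown for 5 members that recur below. All 5 hold a string searched for there, which most members do not, so they do not stand for the members as a whole. RefSeq promoter windows (GRCm38.p6, 250 bases before to 50 bases after a start) were found for 56 of the 69 members. The letters GTTGCCA, part of the site that RFX factors bind, or their complement TGGCAAC on the other strand, were in the windows of 12 of these 56 members (21.4%) and of 5.02% of all 27,025 symbols with a window. The forkhead letters GTAAACA, or TGTTTAC on the other strand, were in the windows of 4 members (7.14%) and of 4.05% of all symbols. Cfap20 held both strings, without overlap, and no other member did. The 100 bases before the start are given on the strand of the gene, 5′ to 3′, with the matched letters in capitals, for Drc1 at chr5:30281293-30281392 (plus strand), Cfap161 at chr7:83794840-83794939 (minus strand), Cfap97d2 at chr8:13705789-13705888 (plus strand), Tekt1 at chr11:72361883-72361982 (minus strand) and Cfap43 at chr19:47837362-47837461 (minus strand).
Drc1: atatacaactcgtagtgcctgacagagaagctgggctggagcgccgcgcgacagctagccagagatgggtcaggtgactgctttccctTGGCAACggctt
Cfap161: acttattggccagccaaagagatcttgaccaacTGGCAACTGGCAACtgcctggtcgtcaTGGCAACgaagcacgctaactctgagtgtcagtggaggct
Cfap97d2: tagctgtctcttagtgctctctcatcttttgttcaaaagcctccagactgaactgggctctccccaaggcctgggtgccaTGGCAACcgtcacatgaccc
Tekt1: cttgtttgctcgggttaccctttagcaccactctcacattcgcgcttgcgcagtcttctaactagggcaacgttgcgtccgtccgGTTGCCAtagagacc
Cfap43: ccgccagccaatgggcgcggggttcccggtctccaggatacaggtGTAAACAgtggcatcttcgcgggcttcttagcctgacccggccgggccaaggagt
Cfap161 held the RFX letters 3 times, at 67, 60 and 40 bases before its start, and Drc1, Cfap97d2 and Tekt1 held them once, at 12, 20 and 15 bases before theirs. Cfap43 held the forkhead letters 55 bases before its start. These matches are letters in a window and not sites shown to be bound. The windows of Dnah5 and Cfap45, also described below, held neither string.

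Together, the 69 genes made up 274 ± 12.9 transcripts per 10,000 in ciliated cells (SD, n = 8 mice). In CS mice, the sum was 289 in C2, 263 in C5, 272 in D2 and 269.6 in D5, and in RA mice it was 272 in F1, 298 in F3, 263 in M1 and 266 in M3. The group means were 273 ± 10.96 in CS (SD, n = 4) and 275 ± 16.3 in RA (SD, n = 4), and the ranges overlapped, with 1 mouse of each group, C2 and F3, above the others. The Cfap genes gave 126 of these transcripts, the Dnah genes 87.6, the Rsph genes 21.2, the Spag genes 20.7, the Drc genes 11.1 and the Tekt genes 7.004. A UMI stands for a molecule, so these levels were not divided by the length of the gene, and their order among genes says only how many molecules were counted. Unspliced transcripts were counted too, and whether the length of a gene affected its level was not tested.

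**Figure D1:**
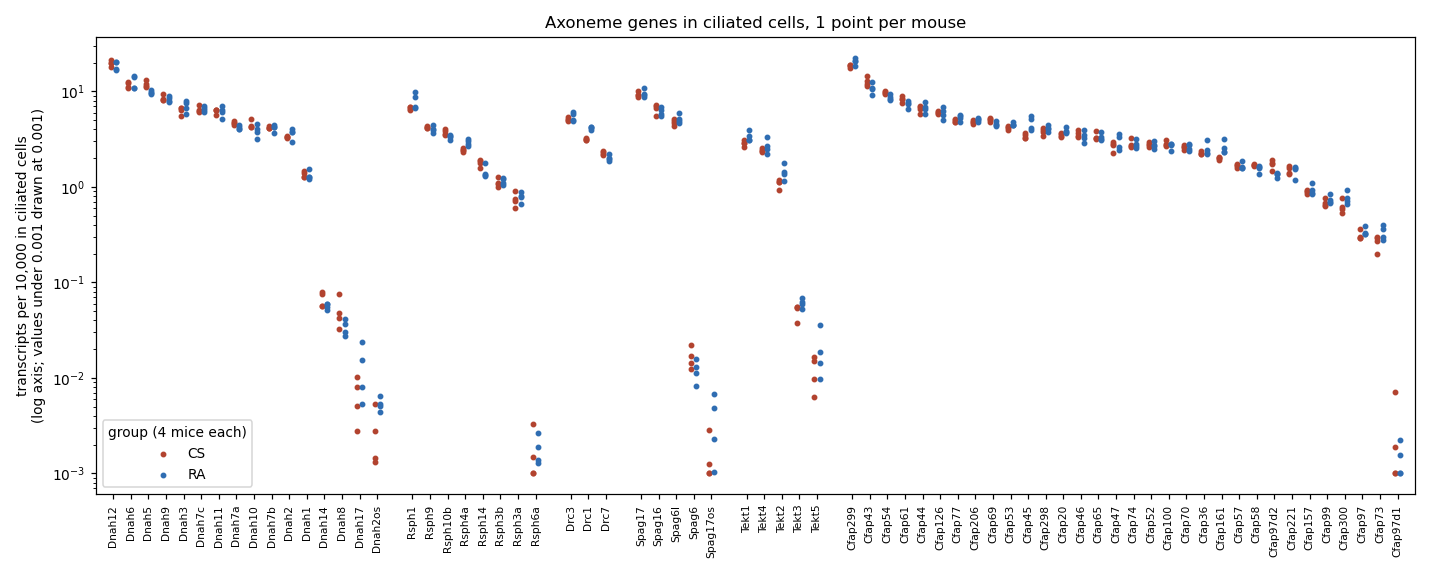
Level of each of the 69 axoneme genes in ciliated cells, by family and falling level (x axis), as transcripts per 10,000 on a log axis (y axis), with 1 point per mouse in red for CS and blue for RA. The levels of the 59 genes found in enough cells to be tested run from 0.298 to 19.6 as means over mice, those of the other 10 lie at or below 0.0617, and the groups overlap in all but 12 of the 59.

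Among the dynein heavy chains, the motors of the arms, Dnah12 was counted most, at 19.1 per 10,000, and next were Dnah6 with 12.1, Dnah5 with 10.8 and Dnah9 with 8.41. Dnah5 and Dnah9 are chains of the outer arm, and Dnah6 and Dnah12 are counted to the inner arms. The outer arm chains Dnah8 and Dnah17, known from sperm, stood at 0.0416 and 0.00982 in ciliated cells, and Dnah14 stood at 0.0617. Dnah7a, Dnah7b and Dnah7c, near-identical copies on chromosome 1, stood at 4.43, 4.17 and 6.53, and how their shared reads were divided is not known, so that their values are uncertain.

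Of the radial spoke genes, Rsph1 was at 7.35, Rsph9 at 4.12, Rsph10b at 3.55 and Rsph4a at 2.67, all proteins of the spoke head. The copies Rsph3a and Rsph3b stood at 0.760 and 1.13, and Rsph6a, known from the spokes of sperm, at 0.00155. The central pair genes Spag17, Spag16 and Spag6l were at 9.38, 6.38 and 4.97, while Spag6, a near-identical copy of Spag6l on another chromosome, was at 0.0142. Drc3, Drc1 and Drc7 of the nexin-dynein regulatory complex were at 5.27, 3.65 and 2.14. Of the tektins, Tekt1 was at 3.13, Tekt4 at 2.54 and Tekt2 at 1.26, and Tekt3 and Tekt5, both known from sperm, were at 0.0555 and 0.0157. The Cfap genes ran from Cfap299, at 19.6, and Cfap43, at 11.7, through Cfap54, at 9.20, and Cfap61, at 7.83, down to Cfap73, at 0.298, and Cfap97d1, at 0.00167. The symbols Dnah2os and Spag17os name transcripts from the strand opposite to Dnah2 and Spag17, and because the use of strand in counting was not given in the sources used here, their levels of 0.00401 and 0.00242 cannot be told apart from stray reads of those genes.

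The coefficient of variation over the 8 mice had a median of 9.56% over the 59 tested genes and ran from 4.92% for Cfap206 to 21.3% for Cfap45. Of these genes, 45 were found in over 90% of ciliated cells, and the shares ran from 37.4% for Cfap73 to 99.6% for Dnah12. Drc1 was found in 97.5% of ciliated cells and in 0.569% of B cells, which lack motile cilia. The share in B cells is what remains after the authors' correction for free RNA, with any transcripts of their own. Over the 59 tested members, the median share was 96.2% of ciliated cells and 1.25% of B cells, and Cfap20 was found in 18.3% of B cells. The cells of both types held a median of 15,907 and 4055 UMIs. With each cell thinned to 2000 UMIs, the shares for Drc1 were 49.7% and 0.438%. Thinning left out 48 of the ciliated cells and 277 of the B cells as too shallow.

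Smoke against room air was compared in ciliated cells with limma on log2 of the mean level plus 1, over the 11,147 genes detected in 10% or more of CS or of RA cells, and a gene was called where its Benjamini-Hochberg adjusted p was under 0.05. Of the 69 axoneme genes, 59 passed this filter. The 10 that did not were Dnah8, Dnah14, Dnah17, Dnah2os, Spag6, Spag17os, Rsph6a, Tekt3, Tekt5 and Cfap97d1. A single member was called, Drc1, which was lower in CS, or 1.69% of the 59 members tested, where 4.66% of all genes tested were called in either direction and 1.91% were called as lower in CS. An unadjusted p under 0.05 was reached by 12 of the 59 members (20.3%), 6 higher and 6 lower in CS, against 24.1% of all genes. The CS and RA mice did not overlap for 12 members, 5 higher and 7 lower in CS, and for 16.0% of all genes. The median log2 difference of the members was -0.02, with 27 above and 32 below 0, and that of all genes was 0.01.

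**Figure D2:**
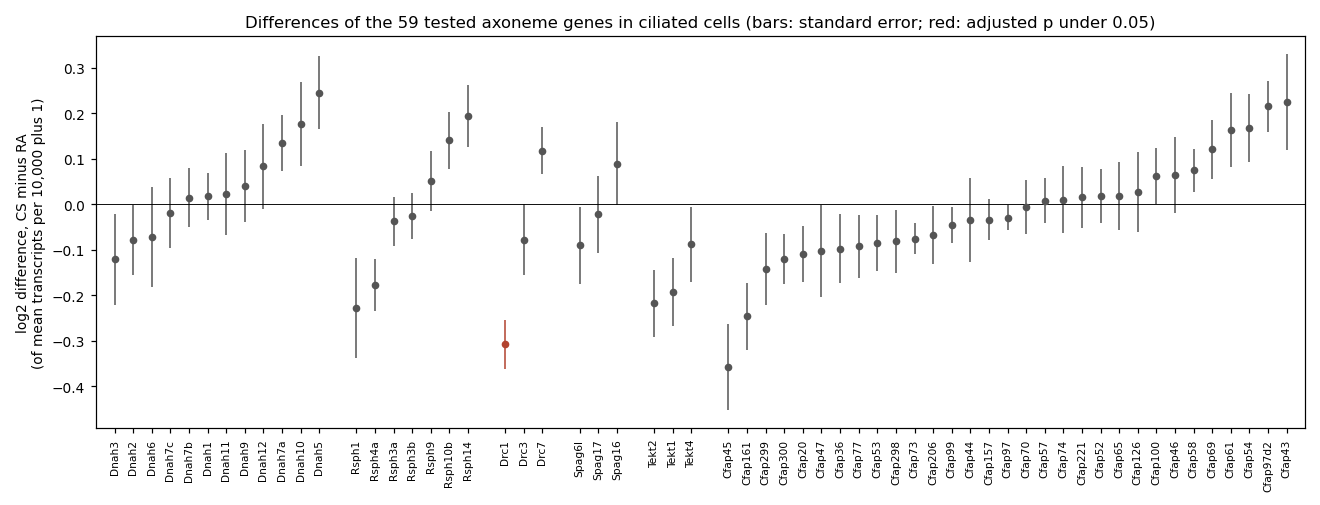
Log2 difference between CS and RA of the 59 tested axoneme genes in ciliated cells (y axis, of mean transcripts per 10,000 plus 1), ordered within each family (x axis), with bars for the standard error from limma and red for an adjusted p under 0.05. Only Drc1 is red, at -0.31, and the other differences lie between -0.36 and 0.24 on both sides of 0.

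DRC1 is a structural subunit of the nexin-dynein regulatory complex, the bridge that holds neighbouring doublets together. Its gene lies on chromosome 5 of GRCm38 from 30281388 to 30366695 on the plus strand. Drc1 stood at 3.18 per 10,000 in C2, 3.09 in C5, 3.09 in D2 and 3.24 in D5, and at 4.23 in F1, 4.20 in F3, 3.96 in M1 and 4.17 in M3. The 4 CS mice thus kept within a narrow band below the 4 RA mice, and the gap between the groups was wider than either band. The means were 3.15 ± 0.0718 in CS and 4.14 ± 0.123 in RA (SD, n = 4 each), a ratio of 0.761, which limma gave as a log2 difference of -0.31 with an adjusted p of 0.0163 (standard error, SE, 0.0548). The adjusted p lay between 0.0128 and 0.0688 over 18 alternative settings, of which 15 kept it under 0.05. Of these settings, 1 asked for at least 10 cells a mouse, which kept all mice and repeated the main fit, here and for the genes below. It was 0.0688 with the lane as a block, 0.0526 without D2 and 0.0553 without D5. The other subunits of the complex among the members went different ways, with Drc7 at 2.27 ± 0.0758 in CS and 2.01 ± 0.142 in RA (log2 difference 0.12, adjusted p = 0.194) and Drc3 at 5.10 ± 0.202 and 5.45 ± 0.579 (log2 difference -0.08, adjusted p = 0.575), neither called by limma. Outside the members, 5 further genes listed to this complex were tested and none was called. Iqca and Ccdc65 had log2 differences of -0.27 and -0.16 (adjusted p = 0.0920 and 0.131 from limma). Those of Tcte1, Iqcd and Fbxl13 were -0.02, 0.01 and 0.09.

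Among the doublet inner proteins, Cfap45 had the lowest log2 difference of the 59 members, though it was not called. It stood at 3.48 in C2, 3.70 in C5, 3.24 in D2 and 3.26 in D5, and at 5.58 in F1, 5.12 in F3, 3.95 in M1 and 4.16 in M3. All CS mice lay below all RA mice, and F1 and F3, the RA mice labelled female, stood above M1 and M3, labelled male. The log2 difference was -0.36 (limma, SE 0.0951, adjusted p = 0.0591), just outside the threshold. Over 18 alternative settings the adjusted p was 0.0403 to 0.181, with 0.106 under the lane as a block and 0.0403 without M1, the one of these 18 that called the gene. The Wilcoxon test over single cells, described below and not among the 18, also called Cfap45. That test treats cells of the same mouse as independent, which they are not. It called 22 of the 59 members, so its call of Cfap45 is not added evidence of a difference between the groups.

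Cfap161, also a doublet inner protein, stood at 2.02 in C2, 2.06 in C5, 2.02 in D2 and 1.94 in D5, and at 3.15 in F1, 2.57 in F3, 2.31 in M1 and 2.30 in M3. Again no CS mouse reached an RA mouse, F1 was the highest, and the SD of the CS mice was 0.0531. Its log2 difference of -0.25 (SE 0.0738) had an adjusted p of 0.0816 in limma.

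Of the tektins, none of the 3 tested was called, and all 3 differences were below 0. Tekt2 stood at 0.923 in C2, 1.122 in C5, 1.17 in D2 and 1.13 in D5, and at 1.79 in F1, 1.43 in F3, 1.14 in M1 and 1.38 in M3. The groups overlapped, as M1 lay within the CS mice, and the log2 difference of -0.22 had an adjusted p of 0.110 (limma). Tekt1 was 2.63 to 3.07 in the CS mice, against 3.11 to 3.99 in the RA mice, which do not overlap, with a log2 difference of -0.19 and an adjusted p of 0.152 (limma).

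The spoke genes were split. Rsph1 stood at 6.58 in C2, 6.80 in C5, 6.81 in D2 and 6.40 in D5, and at 9.79 in F1, 8.80 in F3, 6.89 in M1 and 6.72 in M3. F1 and F3 were high, while M1 and M3 lay beside the CS mice, and the log2 difference of -0.23 had an SE of 0.110 and an adjusted p of 0.229 (limma). Rsph4a was lower in every CS mouse than in any RA mouse, at 2.34 to 2.57 against 2.65 to 3.15, with a log2 difference of -0.18 and an adjusted p of 0.1002 (limma). In the other direction, Rsph10b was 3.52 to 4.08 in the CS mice, against 3.11 to 3.48 in the RA mice, without overlap (log2 difference 0.14, adjusted p = 0.201 from limma). Rsph14 stood at 1.93 in C2, 1.58 in C5, 1.87 in D2 and 1.78 in D5, and at 1.30 in F1, 1.77 in F3, 1.34 in M1 and 1.36 in M3. Here F3 lay among the CS mice, and the adjusted p of 0.118 in limma was 0.0460 without it, the lowest of 18 alternative settings, of which the highest was 0.282.

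Of the dynein heavy chains, 8 of the 12 tested had a difference above 0 and 4 below, and none was called. Dnah5, the outer arm chain most often mutated in primary ciliary dyskinesia, had the highest log2 difference of the members. It stood at 13.1 in C2, 11.03 in C5, 11.9 in D2 and 11.3 in D5, and at 9.51 in F1, 10.5 in F3, 9.42 in M1 and 9.92 in M3. The groups did not overlap, and the log2 difference was 0.24 (limma, SE 0.0797, adjusted p = 0.09997). Dnah10, of the inner arm, overlapped between groups, at 4.26 to 5.10 in CS mice and 3.19 to 4.54 in RA mice (log2 difference 0.18, adjusted p = 0.270 from limma). Dnah7a, one of the 3 copies, was at 4.50 to 4.90 in CS mice and 4.01 to 4.47 in RA mice, without overlap, while its copies Dnah7b and Dnah7c overlapped, with log2 differences of 0.01 and -0.02. Dnah9, Dnah11, Dnah6 and Dnah12 overlapped between the groups as well, with log2 differences of 0.04, 0.02, -0.07 and 0.08.

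Of the 31 Cfap genes tested, 14 had a difference above 0 and 17 below. Cfap97d2, whose product shares a domain with CFAP97, stood at 1.93 in C2, 1.47 in C5, 1.76 in D2 and 1.73 in D5, and at 1.38 in F1, 1.39 in F3, 1.36 in M1 and 1.24 in M3. No RA mouse reached a CS mouse, and the log2 difference of 0.21 (SE 0.0561) had an adjusted p of 0.0567 in limma. Over 18 alternative settings it was 0.0263 to 0.159, under 0.05 without C5 and with summed counts per mouse (0.0377), and above it in the others, with 0.143 without C2 and 0.0997 under the lane as a block. Cfap43, which belongs to the tether of an inner arm, stood at 14.5 in C2, 11.5 in C5, 11.9 in D2 and 12.8 in D5, and at 9.10 in F1, 12.5 in F3, 10.9 in M1 and 10.5 in M3. F3 lay among the CS mice, and the log2 difference of 0.22 had an adjusted p of 0.222 (limma). Cfap54, of the central pair, was 9.41 to 10.2 in the CS mice, against 8.09 to 9.39 in the RA mice (log2 difference 0.17, adjusted p = 0.201 from limma). The 2 members with the lowest levels among those tested, Cfap73 and Cfap97, overlapped between the groups.

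**Figure D3:**
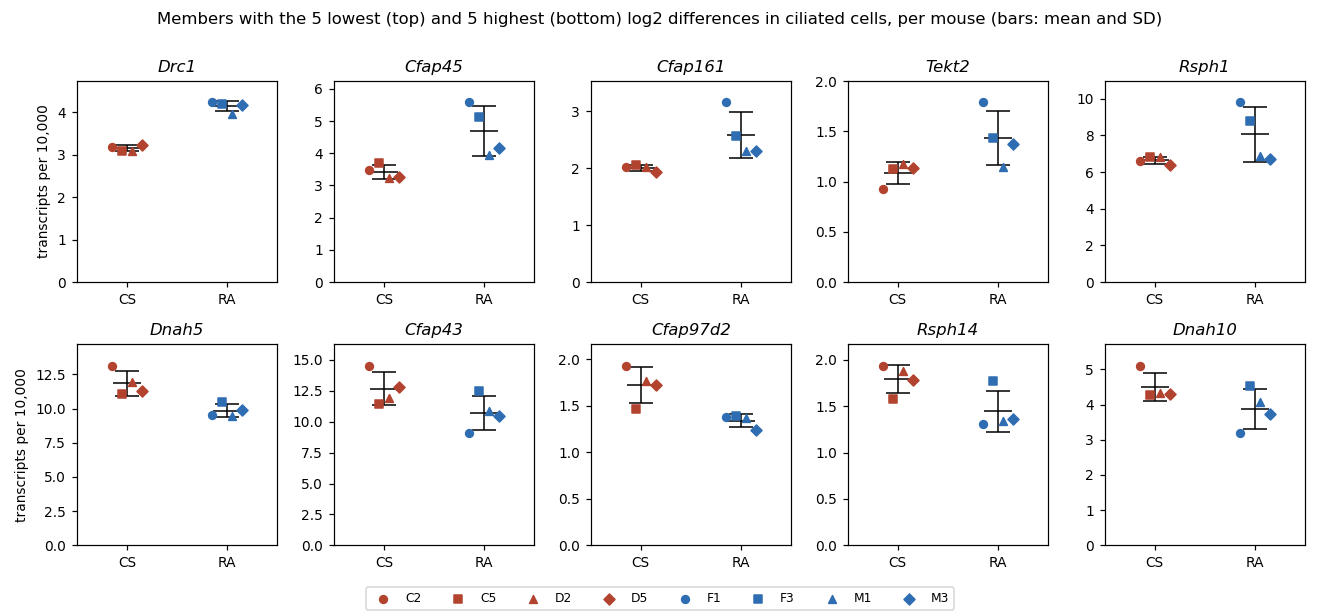
Transcripts per 10,000 in ciliated cells (y axis, from 0) of the members with the 5 lowest (top row) and the 5 highest (bottom row) log2 differences, for CS and RA (x axis), with 1 point per mouse and black bars for the mean and SD of 4 mice. Drc1 has 2 tight, separate bands (3.09 to 3.24 in CS, 3.96 to 4.23 in RA), whereas in Cfap45, Tekt2 and Rsph1 the RA mice F1 and F3 stand above M1 and M3.

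These counts depended on the test. With the lane as a block in limma, 1.44% of all genes and none of the 59 members were called, and Drc1 had the smallest adjusted p of the members. An unadjusted p under 0.05 was then reached by 9 members (15.3%), against 21.4% of all genes. The lane of each CS mouse was read from its library name, and since the sex-linked transcripts of the CS libraries go against their labels, the values with this block rest on names that could not be checked. With a Wilcoxon rank-sum test over single cells and Bonferroni correction, 22 of the 59 members (37.3%) and 22.5% of all genes were called. That test takes the cells of 1 mouse as independent, which they are not.

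The differences varied with the span of the genes in the genome. The counts include unspliced as well as spliced transcripts, and the deposited matrix does not keep them apart. Over the 58 tested members with a span in GENCODE release 21, Spearman's rho between span and log2 difference was 0.414, as a description across genes measured in the same 8 libraries, and over all 11,085 tested genes with a span it was 0.276. Of the 26 members of up to 50 kb, 19 had a difference below 0 (73.1%), with a median of -0.07, where 51.2% of all genes of that span were below 0, and of the 32 longer members 20 had a difference above 0 (62.5%), with a median of 0.02, where 71.1% of all genes of over 50 kb were above 0. Without C2, 15 of the 32 longer members were above 0, and without F1 16 were, with a median of 0.00 on the negative side in both. The shortest, up to 20 kb, were below 0 in 7 of 8 cases, where 55.5% of all genes of that span were below 0. Drc1, at 85,308 bases, was among the longer members with a difference below 0.

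In each mouse, the members of up to 50 kb made up 24.3% of the transcripts of the 58 members in C2, 26.3% in C5, 25.2% in D2 and 25.04% in D5, and 30.2% in F1, 26.4% in F3, 26.5% in M1 and 25.6% in M3. F1 stood apart from the other 7 mice, which lay within 24.3% and 26.5%. F1 also had the lowest median UMI total in ciliated cells, at 13,475, and F3, with a share of 26.4%, had 13,737. Whether depth had a part in these shares was not tested. The part of F1 in the relation was not tested beyond leaving it out, which gave a rho of 0.270. Over the other mice left out in turn, rho lay between 0.376 and 0.470.

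**Figure D4:**
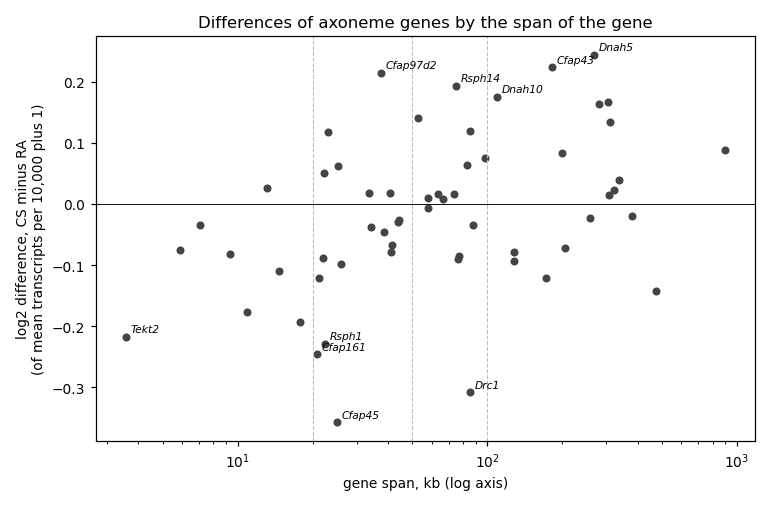
Log2 difference between CS and RA in ciliated cells (y axis) against the span of the gene in kb on a log axis (x axis), with 1 point for each of 58 axoneme genes, dashed lines at 20, 50 and 100 kb, and names for the 5 highest and 5 lowest differences. Points under 20 kb lie below 0 in 7 of 8 cases, and points over 50 kb lie above 0 in 20 of 32.

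The other genes of the ciliary program were read in the same way, from lists of regulators, arm assembly factors, docking and ruler proteins, other arm chains, other central pair, nexin link and doublet inner proteins, axonemal tubulins and intraflagellar transport. The lists held 112 symbols, some of them synonyms of the same gene, so a symbol not found need not be a missing gene. Of these symbols, 95 were in the files and 88 were tested. Limma called 7 of the 88 (7.95%), 2 higher and 5 lower in CS, beside the 4.66% of all genes tested, of which 306 were higher and 213 lower. Foxj1 was not called, with 6.37 ± 0.657 in CS and 7.11 ± 0.787 in RA (SD, n = 4 each, log2 difference -0.14, adjusted p = 0.410). Rfx3 was at 6.27 ± 0.239 and 5.45 ± 0.379 (adjusted p = 0.168), and Rfx2 at 2.005 ± 0.0584 and 2.15 ± 0.141 (adjusted p = 0.420).

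Mns1, a doublet inner protein like Cfap45 and Cfap161, was lower in CS, at 2.62 in C2, 2.89 in C5, 2.78 in D2 and 2.67 in D5 against 5.40 in F1, 4.37 in F3, 4.25 in M1 and 4.51 in M3. The groups did not overlap, and the log2 difference of -0.59 (adjusted p = 0.00376 from limma) stayed called under all 18 alternatives. Tubb4b, the tubulin of motile cilia, was lower as well, at 13.3 ± 1.01 in CS and 19.4 ± 2.10 in RA (log2 difference -0.51, adjusted p = 0.0177 from limma). Dnaaf3 and Zmynd10, which assemble dynein arms in the cytoplasm, had log2 differences of -0.32 and -0.22 (adjusted p = 0.0324 and 0.0414 from limma), and Dynll1, a light chain that many complexes share, had -0.40 (adjusted p = 0.0420). The transport genes Ift46 and Wdr19 were higher in CS, by 0.23 and 0.20 on the log2 scale (adjusted p = 0.0448 and 0.0447 from limma). The calls of Dnaaf3, Zmynd10, Dynll1, Tubb4b, Ift46 and Wdr19 were each lost under between 5 and 12 of the 18 alternatives, always with the same direction.

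Markers of other cells in the ciliated cells were followed beside these results. The summed level of 4 club markers, which Scgb1a1 leads, was 42.6 to 74.1 in the CS mice, against 31.3 to 59.98 in the RA mice, and 1 of the 3 tested, Cyp2f2, was called higher in CS. Of the goblet markers 1 was tested, Agr2, and it was called higher in CS, at 0.258 to 0.333 against 0.135 to 0.144. Its mean level was 0.222 in ciliated, 1.75 in goblet and 0.0405 in club cells. Whether the calls of Cyp2f2 and Agr2 reflect transcripts of other cells or of the ciliated cells themselves was not tested. The basal markers summed to between 0.00736 and 0.0338, with Krt14 at 0, and the immune markers summed to between 0.0621 and 0.136. Of the AT2 markers, 3 of 5 were tested and none was called, with sums between 0.336 and 2.67. The AT1 markers summed to between 3.17 and 4.85, the endothelial ones to between 0.240 and 1.21 and the fibroblast ones to between 0.0244 and 0.0886. None of these was called where it was tested. Their part in the differences of the members was not tested. In the 30 ciliated cells of cluster 19, the club marker Scgb1a1 had a median of 894 per 10,000. Without these cells, Drc1 was again the only member called. They were 30 of 3519 ciliated cells, so leaving them out could change little. The transcripts of the club list in the other ciliated cells stayed in the fit.

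Outside ciliated cells, the summed level of the members was lower. It was 55.7 ± 6.996 in club cells, 20.8 ± 7.59 in goblet cells and 4.53 ± 0.951 in basal cells (SD, n = 8 mice each). It was 4.89 ± 0.825 in AT2 cells, 4.19 ± 0.491 in AT1 cells and 3.48 ± 0.318 in B cells, and the level of basal cells lay among these. Other labels reached from 1.82 ± 0.319 in cDC1 cells, over 7 mice, to 14.4 ± 5.38 in the cells labelled Mast and 18.5 ± 18.7 in the 84 cells labelled PNEC, with 8 mice each. The PNEC cells, 4 to 18 a mouse, were under the minimum of 20 in every mouse and were not tested, and their summed level was 5.78 to 53.1 in the CS mice and 1.66 to 19.9 in the RA mice, which overlap. As the cell types were named from the same transcripts, these levels are a description.

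The level of club cells differed between the deposited clusters. Of the 1389 club cells, 803 were in cluster 12, where the summed level had a median over cells of 1.97, 552 were in cluster 19, with a median of 108, and 34 were in cluster 2, with 237. The goblet cells were divided in the same way, with 440 in cluster 12 (median 2.29) and 69 in cluster 19 (median 97.0). The cells of cluster 19 thus carried both the axoneme genes and Scgb1a1, the main secretory protein of club cells, at a median of 3486 per 10,000 in those labelled club, against 5495 in the club cells of cluster 12. Foxj1 was found in 82.4% of the club cells of cluster 19 and in 12.7% of those of cluster 12. The club cells of cluster 19 also held more UMIs, with a median of 42,624 against 28,501 in cluster 12 and 15,879 in the ciliated cells of cluster 2. The authors had labelled 1025 cells as multiplets, no doublet caller was run here, and the part of 2 cells under 1 barcode was not tested.

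The order of the members' levels in cluster 19 was close to that in ciliated cells. In the club cells of this cluster, each of the 59 tested members stood between 32.5% (Cfap126) and 61.9% (Cfap73) of its level in ciliated cells, with a median of 43.5%, and the levels of the 59 genes in both kinds of cell had a Spearman's rho of 0.987, given as a description across genes. In the club cells of cluster 12, the median was 0.981%, and 3 members stood above 10%, Cfap97, Cfap20 and Rsph3b. In basal cells the median was 0.943%, and the members above 10% were Cfap97, Rsph3a, Cfap20, Cfap36 and Rsph3b. In B cells the median was 0.743%, with Cfap97 and Cfap20 above 10%. Cfap97 stood at 0.326 in ciliated cells and 0.317 in AT1 cells.

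**Figure D5:**
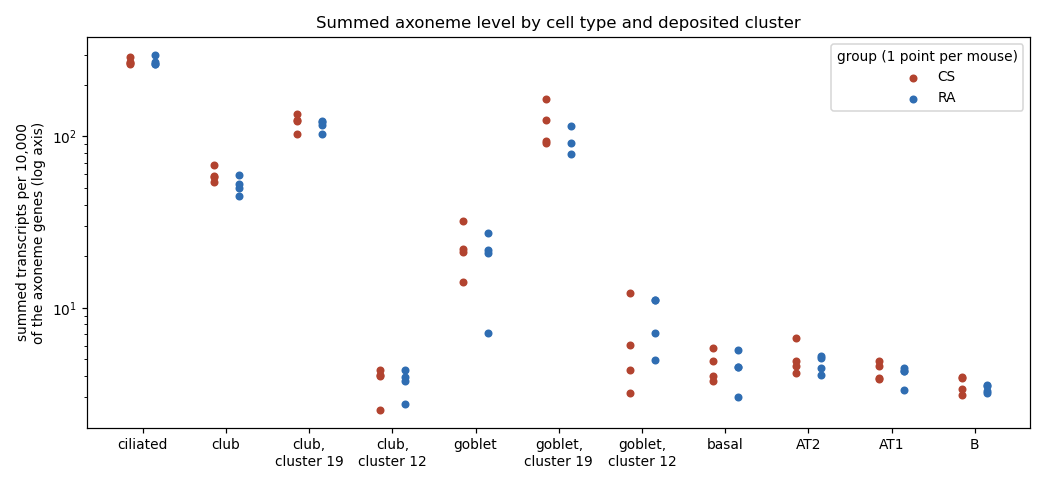
Summed transcripts per 10,000 of the 69 axoneme genes (y axis, log) by cell type and, for club and goblet cells, by deposited cluster (x axis), with 1 point per mouse in red for CS and blue for RA. Ciliated cells lie between 263 and 298, the cells of cluster 19 between 78.4 and 165, and the club cells of cluster 12 between 2.54 and 4.33, beside basal, AT2, AT1 and B cells.

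In club cells, limma called 25 of 11,736 genes between CS and RA (0.213%) and none of the 59 members tested. An unadjusted p under 0.05 was reached by 10 members (16.9%), against 10.3% of all genes, and 50 of the 59 had a difference above 0, with a median log2 difference of 0.07 against 0.01 over all genes. The summed level was 54.0 to 68.1 in the CS mice, against 45.0 to 59.8 in the RA mice, which overlap. The share of club cells in cluster 19 was 35.6% to 42.9% in the CS mice, against 37.8% to 46.0% in the RA mice. Within the club cells of cluster 19, the summed level was 102.7 to 134 in the CS mice and 103 to 123 in the RA mice, which overlap. The fit over all club cells also held the 34 of cluster 2, 1 to 11 a mouse, with a median summed level of 237. The part of the mix of clusters in the differences above 0 was not tested. In the club cells of cluster 12 alone, 0.0885% of 10,172 genes and none of the 31 members tested were called. There 2 of the members (6.45%) and 8.07% of all genes had an unadjusted p under 0.05, and 20 members were above and 11 below 0, with a median log2 difference of 0.01.

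In goblet cells, 0.176% of 11,946 genes and none of the 58 members tested were called by limma, and 1 member (1.72%) and 12.6% of all genes had an unadjusted p under 0.05. Of the 58, 45 were above and 13 below 0, with a median log2 difference of 0.03, which was also 0.03 over all genes. The summed level was 32.1 in C2, 14.2 in C5, 21.2 in D2 and 21.98 in D5, and 7.12 in F1, 21.6 in F3, 21.01 in M1 and 27.3 in M3. F1, the lowest, had no goblet cell in cluster 19, where the other mice had between 3 and 20. In the goblet cells of cluster 12, with 3 RA mice, 0% of 11,337 genes and none of 51 members were called, and 9.13% of all genes and 2 members (3.92%) had an unadjusted p under 0.05. The signs went the other way there, with 13 members above and 38 below 0 and a median of -0.02. Only 3 CS mice and 1 RA mouse reached the minimum of 20 basal cells, so basal cells were compared with a minimum of 10, which all 8 mice reached, a choice made after the data were seen. In limma 0% of 10,127 genes and none of the 13 members tested were called, 9.09% of all genes and 1 member (7.69%) had an unadjusted p under 0.05, and 6 members were above and 7 below 0, with a median log2 difference of -0.01. Their summed level was 3.74 to 5.83 in the CS mice, against 3.04 to 5.71 in the RA mice.

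The share of ciliated cells was compared as well. They were 51.3% of the epithelial cells in C2, 53.4% in C5, 41.7% in D2 and 38.9% in D5, and 45.3% in F1, 26.9% in F3, 38.4% in M1 and 47.0% in M3. The groups overlapped, with 46.3% ± 7.13 in CS and 39.4% ± 9.13 in RA (SD over 4 mice each). A two-sided exact permutation test gave p = 0.257, where the smallest that 4 mice against 4 allow is 0.0286.

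Over 32 cell types, 59 of the 69 were highest in ciliated cells, and for 54 of these the second type was club cells. The other 10 were highest elsewhere, 9 of them among the 10 that were too rare in ciliated cells to be tested. Dnah17 was highest in venous endothelium, at 0.509 ± 0.141 (SD, n = 8), where it was found in 19.2% of cells, against 6.16% of B cells. Dnah8 was highest in the capillary endothelium labelled B, at 0.467 ± 0.117. The next types lay within the spread, with Dnah17 at 0.395 ± 0.247 in the cells labelled cMono and Dnah8 at 0.443 ± 0.290 in NK and cytotoxic T cells. Dnah2os was at 0.195 ± 0.0707 in the capillary endothelium labelled B, beside 0.248 ± 0.0316 for Dnah2, whereas in ciliated cells it was at 0.00401 beside 3.48 for Dnah2. Tekt5 was highest in neuroendocrine cells, at 0.283 ± 0.199, over 84 cells in all.

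Dnah7a was the single tested member that was highest outside ciliated cells. The cells labelled Mast carried Gata2, Cpa3, Ms4a2 and Fcer1a, which mast cells and basophils share. Mcpt8, a basophil protease, was at 11.6 per 10,000, with 46.6 in F1 and 4.66 to 8.83 in the other mice. Kit, the receptor that defines mast cells, was at 0.390 (0.0138 to 2.33 over the mice). These markers, which were named after the values were seen, go against the label. In these cells Dnah7a stood at 16.5 in C2, 8.02 in C5, 13.6 in D2 and 12.9 in D5, and at 8.62 in F3, 10.8 in M1 and 18.4 in M3. F1 had 6 such cells and a level of 1.79. The CS and RA ranges overlapped. The mean over 8 mice was 11.3 ± 5.27, against 4.43 ± 0.321 in ciliated cells, and Dnah7a was found in 63.1% of the cells as a mean over mice, at a median depth of 3447 UMIs. The copies Dnah7b and Dnah7c stood at 0.0172 and 0.0616 in these cells.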

How the data were processed

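The deposited matrix was called normalized, but its values were estimated counts: UMI counts that the authors had made with STARsolo (STAR 2.7.3a, GRCm38.p6, GENCODE release 22 with eGFP and tdTomato), spliced and unspliced together, and had corrected for free RNA with SoupX, so that 1.28% of the values above 0 were whole to within 1e-06. The authors kept cells with at least 1000 UMIs, at most 5% mitochondrial transcripts as stated and at least 7.5% unspliced transcripts. The use of strand in counting was not given in the sources used here. Cell types and clusters were the authors' own, and 1025 cells labelled multiplet and 7 labelled cell cycle were left out.

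Estimated counts were divided by the cell's total, times 10000, and averaged over the cells of a type in each mouse, without rounding, since no count model was used. CS and RA were compared with limma 3.58.1 in R 4.3.3 (trend in the prior) on log2 of the mean plus 1, for genes detected in 10% or more of CS or of RA cells and mice with at least 20 cells (10 for basal cells), with Benjamini-Hochberg adjustment. Fold changes of low genes are understated on this scale. The fit was tested on simulated data with known changes. Shares of cells were compared by an exact two-sided permutation test over 70 arrangements. Gene spans came from GENCODE release 21. Promoter windows came from RefSeq, and 13 members had none there. Python 3.11.15, numpy 2.4.6, pandas 2.3.3, scipy 1.17.1 and matplotlib 3.10.9 were used.

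Groups came from the exposure labels, and replicates were numbered in accession order. The members and gene lists were chosen with earlier results of these data known. Genes were named where they were called, where they had the 5 highest or 5 lowest log2 differences, where they were among the highest or lowest of a family or of a list, or where they were near-identical copies. Others, such as Rfx2, Dnah8, Dnah11, Dnah14 and the members highest outside ciliated cells, were chosen after their values were seen. Alternatives were the lane as a block, other filters, pseudocounts and scalings, summed counts, a Wilcoxon test over cells, and each mouse left out.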

Additional observations from a re-analysis of the deposited data

Results flagged for a closer look

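Among 80 groups of 4 mice, in which the highest or lowest mouse was compared with the others by Dixon's ratio, 4 held a mouse that stood apart, and chance gives about 1 in 20. Cfap97d2 was at 1.24 transcripts per 10,000 in the RA mouse M3 and between 1.36 and 1.39 in the other RA mice. Rsph14 was at 1.77 in the RA mouse F3 and between 1.30 and 1.36 in the others. Dnah10 was at 5.10 in the CS mouse C2 and between 4.26 and 4.33 in the others, and Dnah9 was at 9.36 in C2 and between 8.20 and 8.37 in the others.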

How the results depend on the processing

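In ciliated cells, 519 genes were called, and 161 were with the lane as a block, 71 with no filter on genes, 2507 with the Wilcoxon test over cells and 111 to 487 with 1 mouse left out. Of the members, 1 was called, and 0 were with the lane as a block, 2 with summed counts (Drc1 and Cfap97d2), 22 with the Wilcoxon test and 0 to 2 with 1 mouse left out. In club cells, 25 genes were called, and 9 were in cluster 12 alone, an alternative added after the data were seen, 0 with no filter and 1 to 21 with 1 mouse left out. In goblet cells, 21 were called, and 0 were in cluster 12 alone, likewise added, 38 with a filter of 25% of cells, 0 with no filter, 35 with a pseudocount of 0.1 and 0 to 47 with 1 mouse left out. No member was called in club or goblet cells under any of these. In ciliated cells, Drc1, Foxj1 and the called ciliary genes outside the members kept their direction under all 18 limma alternatives. Rfx2, Rfx3, Iqca, Ccdc65, Tcte1, Iqcd and Fbxl13 were not followed over them. The markers Cyp2f2 and Agr2 were not followed over the alternatives. In ciliated cells, the median log2 difference of the members, -0.02, was 0.01 without C5 and 0.01 without F3, and the difference in their summed level changed sign in the same way, from -1.37 to 2.11 and 6.54 transcripts per 10,000. These shifts were smaller than the spread between mice, and the share of ciliated cells stayed higher in CS without reaching the threshold. Of the called genes, 58.96% were higher in CS, and 50.7% were after quantile normalization. The replicate numbers follow the order of deposit and pair no mice, whereas the lane paired 1 CS with 1 RA mouse, and with that block, which rests on the names of the CS libraries, the adjusted p of Drc1 was 0.0688. In basal cells, with at least 10 cells a mouse, 0 genes were called by limma (921 at an unadjusted p under 0.05), 1 was with a pseudocount of 0.1, and 0 to 5 were with 1 mouse left out, 5 without D2 and 1 without F1, and no member was called in any of these. With 4 mice a group, small differences could not be told from the spread.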
